A study of Mus musculus with 16 samples.

Results

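The transmembrane AMPA receptor regulatory proteins (TARPs) are auxiliary subunits that travel with the AMPA receptor, and the genes described here are the 6 that encode them in the mouse: Cacng2, Cacng3, Cacng4, Cacng5, Cacng7 and Cacng8. The rule takes them by name and uses no measured value, although the family was picked with earlier results of these data known. They are 6 of the 54532 genes in the deposited tables. All 6 passed the filter on low counts, as did 26257 genes in all. RNA was sequenced from cortical parvalbumin (PV) interneurons, fast-spiking inhibitory cells, that were sorted by fluorescence after fixation. In 7 libraries the mice carried PV-Cre with lsl-eGFP-GluA2, so that Cre expression in PV cells switched on the AMPA receptor subunit GluA2 fused to eGFP, and in 9 libraries they carried PV-Cre with lsl-eGFP and made eGFP alone. Both groups therefore carry PV-Cre and a conditional eGFP allele, and the labels give the purpose as removal of calcium-permeable AMPA receptors. The mice were adults of 113.1 ± 11.6 days, a value for the whole study. Age, sex and litter are not given per library, and the labels number the libraries as biological replicates. The p-values measure the spread between these libraries.

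AMPA receptors are tetramers of GluA1 to GluA4, the products of Gria1 to Gria4, and receptors that lack GluA2 let calcium pass. TARPs bind the receptor as it is assembled, carry it to the cell surface, slow its closing and anchor it at the synapse through scaffold proteins of the PSD-95 family. They fall into type I, with Cacng2 (stargazin, the gene mutated in the stargazer mouse), Cacng3, Cacng4 and Cacng8, and type II, with Cacng5 and Cacng7, which act more on gating than on surface delivery. Calcium permeability and channel block by polyamines are also altered by TARPs, which is why their level is of interest in PV cells, a textbook site of receptors poor in GluA2.

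The 2 types differ at the end of the coding sequence, where type I proteins carry the motif that binds the PDZ domains of PSD-95. The last 30 coding bases of each principal transcript are shown for that reason, written 5′ to 3′ on the coding strand, with the last 4 codons and the stop codon in capitals (GENCODE M21 transcripts on GRCm38).
Cacng2: acagccaaccgccggACCACGCCCGTATGA
Cacng8: acgctcaacaggaaaACCACGCCCGTGTAG
Cacng3: ccggccaacagacgtACCACGCCTGTCTGA
Cacng4: atgctgaaccggcggACGACTCCCGTGTGA
Cacng7: catctccacatctccACTTCGCCGTGCTGA
Cacng5: tatgaccagatgtcaTCATCTCCCTGCTGA
Over the last 12 coding bases before the stop, pairs of type I members matched at 8 to 11 positions, the type II pair matched at 8, and pairs of unlike type matched at 5 to 7. Identity over the aligned coding sequence was highest for Cacng2 with Cacng3 (72.2%) and for Cacng5 with Cacng7 (71.9%), and 55.9% to 68.8% for the other pairs. The longest run of bases shared by any pair of members was 26 bp, between Cacng5 and Cacng7, against a read length of 150 bp.

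On GRCm38, Cacng2 (ENSMUSG00000019146) lies on the minus strand at chr15:77991748-78120028. Cacng3 (ENSMUSG00000066189) lies on the plus strand at chr7:122670492-122769393. Cacng7 (ENSMUSG00000069806, chr7:3332955-3368221) and Cacng8 (ENSMUSG00000053395, chr7:3390683-3415648) are plus-strand neighbours with 22461 bp between them, followed after 8546 bp by Cacng6, a gamma subunit that is not a TARP. Cacng4 (ENSMUSG00000020723, chr11:107732357-107794557) and Cacng5 (ENSMUSG00000040373, chr11:107874605-107915055) are minus-strand neighbours with 80047 bp between them, and Cacng1, the gamma subunit of skeletal muscle calcium channels, lies 15834 bp from Cacng4. No protein-coding gene lies in these gaps. Every member except Cacng5 overlaps another annotated gene. The largest of these in reads is A730060N03Rik, antisense to the start of Cacng2, which averaged 230 counts against 1929 for Cacng2. Strand use in counting is not stated, and reads in the shared stretches cannot be told apart.

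Total counts ran from 7454165 to 15462544 per library, and the libraries stood apart by background. Genes of olfactory and vomeronasal receptors, which cortical neurons do not use, took 82.4 to 162 CPM (counts scaled to the library total) in 5 libraries, 676 to 1277 CPM in 5 and 1911 to 4148 CPM in 6. These are called low-, middle- and high-background libraries below, and they number 2, 3 and 2 in the eGFP-GluA2 group and 3, 2 and 4 in the eGFP group. At least 1 count was found for 30087 to 33334 genes where background was low, and for 47975 to 49971 genes where it was high. CPM of single genes and of markers, here and below, are also scaled by the trimmed mean of M-values (TMM). The TMM factors, which multiply library size, were 0.809 to 0.915 in low-, 0.838 to 0.960 in middle- and 0.978 to 1.40 in high-background libraries. Against library totals alone, this scaling lowers CPM in the high-background libraries relative to the low-background ones. Marker levels moved with the background split. The summed CPM of the 10 PV and GABAergic markers averaged 12243 in the low-background and 5701 in the high-background libraries. Pvalb itself averaged 273 ± 102 CPM in eGFP-GluA2 and 274 ± 136 CPM in eGFP libraries (SD, n = 7 and 9), and Gad1, the enzyme that makes GABA, 2389 ± 824 CPM in eGFP-GluA2 and 2461 ± 966 CPM in eGFP libraries. The targeted gene, Gria2, had 142 to 300 TPM (length-scaled transcript abundance) in eGFP-GluA2 and 57.2 to 108 TPM in eGFP libraries. These ranges do not overlap, but those in TMM-scaled CPM do, with 718 to 1215 CPM in eGFP-GluA2 and 472 to 783 CPM in eGFP libraries. Scaled to library totals alone, the counts do not overlap. The closest libraries were then eGFP-GluA2 replicate 5 (6826 of 8578770 counts) and eGFP replicate 1 (6221 of 8535349 counts). Reads from the transgene and from the gene itself cannot be told apart.

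The PV interneurons held mainly 3 TARP transcripts, Cacng8, Cacng2 and Cacng7, with Cacng3 well below them and Cacng4 and Cacng5 near the floor. Levels of different genes are compared here as TPM, which are scaled for transcript length. Cacng8 averaged 29.8 ± 11.4 TPM in eGFP-GluA2 and 22.8 ± 4.1 TPM in eGFP libraries (SD, n = 7 and 9, as for all group values). Cacng2 averaged 23.2 ± 8.77 TPM in eGFP-GluA2 and 18.2 ± 4.4 TPM in eGFP libraries. Cacng7 averaged 22.1 ± 7.85 TPM in eGFP-GluA2 and 18.4 ± 3.03 TPM in eGFP libraries. All 3 had the larger SD in the eGFP-GluA2 group. Cacng3 averaged 4.47 ± 1.48 TPM in eGFP-GluA2 and 3.21 ± 0.828 TPM in eGFP libraries. Cacng4 averaged 0.789 ± 0.448 TPM in eGFP-GluA2 and 0.708 ± 0.476 TPM in eGFP libraries. Cacng5 averaged 0.387 ± 0.354 TPM in eGFP-GluA2 and 0.468 ± 0.256 TPM in eGFP libraries.

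Neighbours in this order were compared within libraries by exact two-sided sign-flip permutation tests on log2(TPM + 0.5), 10 pairs in all. Cacng8 lay above the next gene in 7 of 7 eGFP-GluA2 libraries (by 0.35 over Cacng2, exact permutation p = 0.0156, adjusted over the 10 pairs 0.026) and in 9 of 9 eGFP libraries (by 0.30 over Cacng7, exact permutation p = 0.00391, adjusted 0.013). These are the smallest p-values that 7 and 9 libraries can give. They measure the spread between libraries and not any error of the length scaling, on which the place of Cacng8 above Cacng2 rests. In reads, Cacng2 averaged 1929 counts, against 795 for Cacng8 and 732 for Cacng7. Their longest annotated transcripts are 5510, 1897 and 2212 bp. In TPM, Cacng2 and Cacng7 did not differ beyond their spread. Cacng2 was the higher in 5 of 7 eGFP-GluA2 libraries (exact permutation p = 0.359) and Cacng7 in 5 of 9 eGFP libraries (exact permutation p = 0.699). The step down to Cacng3 and the step from Cacng3 to Cacng4 held in every library of both groups. In TPM, Cacng4 exceeded Cacng5 in 6 of 7 eGFP-GluA2 libraries (exact permutation p = 0.0312) and in 7 of 9 eGFP libraries (exact permutation p = 0.0234). Reads did not keep this order. Cacng5 had more counts than Cacng4 in every high-background library (53 to 73 against 39 to 55). In others Cacng4 had more, such as eGFP-GluA2 replicate 2 (35 against 21). Their longest annotated transcripts are close in length, 3500 bp for Cacng4 and 3705 bp for Cacng5. The order of these 2 genes is thus not settled here.

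**Figure D1:**
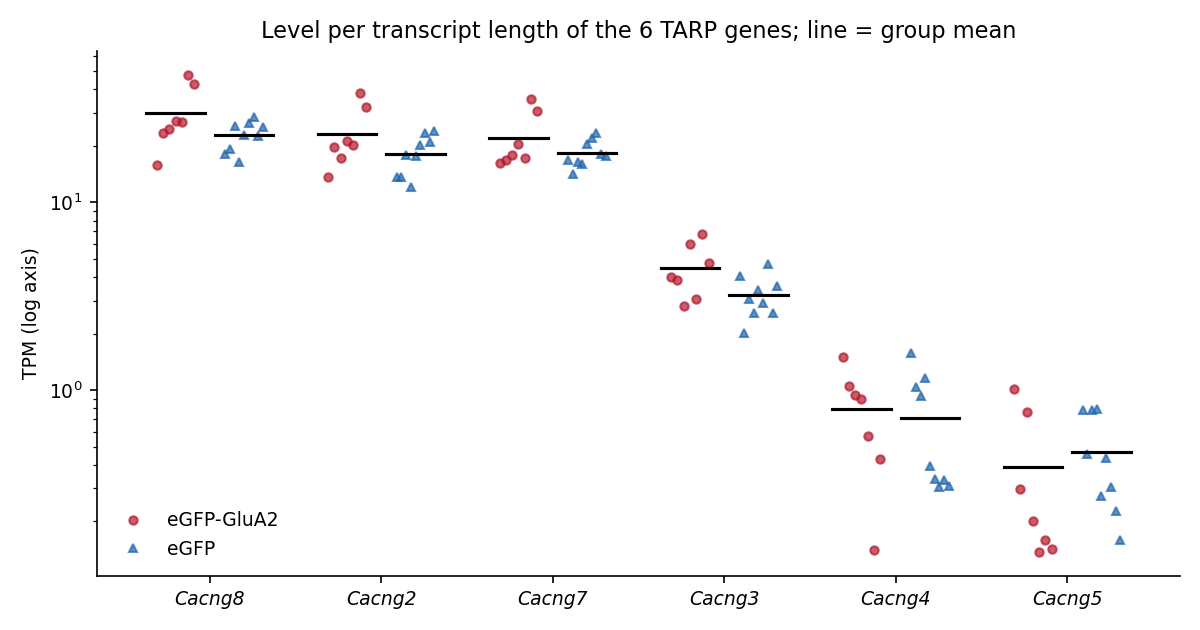
TPM of each TARP gene (y axis, log scale) in eGFP-GluA2 (circles) and eGFP (triangles) libraries, 1 point per library, with the group mean as a line. Cacng8, Cacng2 and Cacng7 form an upper band with means of 18.2 to 29.8 TPM, Cacng3 lies between 2 and 7 TPM, and Cacng4 and Cacng5 have means below 1 TPM.

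As a share of the summed TARP TPM, Cacng8 made up 36.5 ± 3.08% in eGFP-GluA2 and 35.7 ± 2.09% in eGFP libraries. Cacng2 made up 28.5 ± 1.53% in eGFP-GluA2 and 28.3 ± 3.13% in eGFP libraries, and Cacng7 27.4 ± 1.85% in eGFP-GluA2 and 28.9 ± 2.64% in eGFP libraries. The remaining 3 genes took 5.70%, 1.21% and 0.615% (Cacng3, Cacng4, Cacng5) in eGFP-GluA2 libraries, against 5.04%, 1.23% and 0.791% in eGFP libraries. Type I members together held 71.9 ± 2.43% in eGFP-GluA2 and 70.3 ± 2.87% in eGFP libraries. For each of the 6 genes the difference in mean share was smaller than the SD within either group. The TPM of all 6 per 100 TPM of Gria1, Gria3 and Gria4 was 35.0 ± 3.05 in eGFP-GluA2 and 33.3 ± 3.36 in eGFP libraries. With Gria2 in the denominator it was 19.2 ± 1.83 in eGFP-GluA2 and 23.2 ± 3.15 in eGFP libraries, where the Gria2 values also hold reads of the transgene. These shares are descriptions and were not tested.

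**Figure D2:**
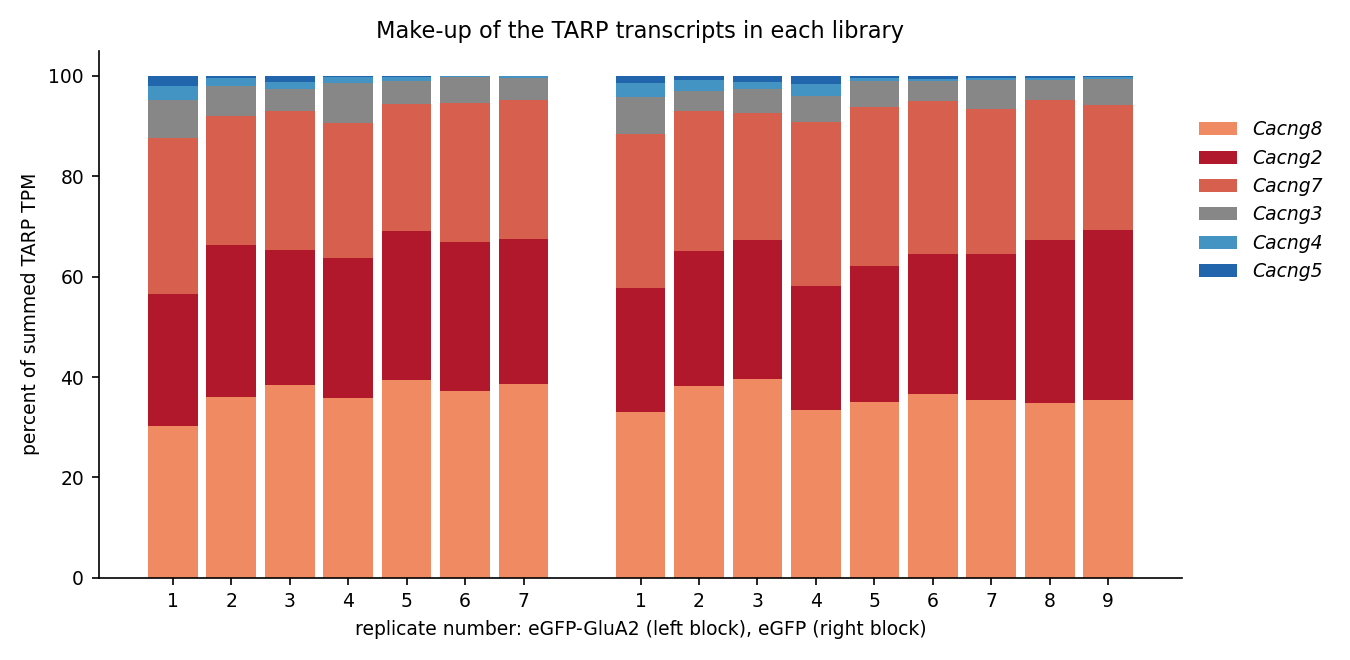
Percent of the summed TPM of the 6 TARP genes taken by each gene (stacked bars), 1 bar per library, with the 7 eGFP-GluA2 libraries on the left and the 9 eGFP libraries on the right. Cacng8, Cacng2 and Cacng7 together take 87.5% to 95.2% of every bar.

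Between the groups, 0 of the 6 TARP genes passed the threshold (adjusted p under 0.05, edgeR quasi-likelihood test), where 0.00381% of all tested genes did. DESeq2 called none of the 6 either (0.0154% of its genes passed). None of the 6 had an unadjusted p under 0.05 in edgeR, where 0.564% of all genes were higher and 0.552% lower at that level, or in DESeq2, and the adjusted p of each was 1.00 in both. Group values below are CPM scaled by the trimmed mean of M-values. In none of the 6 did the libraries of one group all lie above or all below those of the other, which 0.00381% and 0.0152% of all tested genes did. In bulk RNA, fewer cells of a type and less RNA per cell cannot be told apart.

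Cacng8, the TARP most abundant in hippocampus, ran from 39.3 to 113 CPM in eGFP-GluA2 libraries (median 88.4) and from 32.7 to 89.2 CPM in eGFP libraries (median 74.6). The groups overlapped, with 3 eGFP-GluA2 libraries above the highest eGFP library. Its log2 fold change, eGFP-GluA2 over eGFP, was 0.36 ± 0.26 (SE, 95% interval -0.19 to 0.90, edgeR adjusted p = 1.00, exact permutation p = 0.255 on log2 CPM). It was the largest estimate of the 6 in this fit.

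Cacng2 ran from 93 to 246 CPM in eGFP-GluA2 libraries (median 228) and from 78.3 to 232 CPM in eGFP libraries (median 192). The groups overlapped over most of their range, and the fold change was 0.19 ± 0.26 on the log2 scale (-0.36 to 0.75, edgeR adjusted p = 1.00, exact permutation p = 0.487). Cacng7 ran from 45.6 to 88.7 CPM (median 79.4) in eGFP-GluA2 and from 37.6 to 92.2 CPM (median 68.2) in eGFP libraries. Both the lowest and the highest Cacng7 libraries were eGFP libraries, and the fold change was 0.14 ± 0.21 (-0.30 to 0.57, edgeR adjusted p = 1.00, exact permutation p = 0.484).

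Cacng3 ran from 9.04 to 26.7 CPM in eGFP-GluA2 libraries (median 12.8) and from 9.5 to 17.2 CPM in eGFP libraries (median 12.2). A single library, eGFP-GluA2 replicate 4, stood above all others at 26.7 CPM. The fold change was 0.19 ± 0.18 (-0.19 to 0.57, edgeR adjusted p = 1.00, exact permutation p = 0.529), and -0.02 ± 0.11 without that library.

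Cacng4 ran from 0.496 to 4.72 CPM in eGFP-GluA2 libraries (median 3.69) and from 1.32 to 4.56 CPM in eGFP libraries (median 3.09), on 7 to 55 counts per library. Its fold change of 0.14 ± 0.39 (-0.69 to 0.97, edgeR adjusted p = 1.00, exact permutation p = 0.944) was far inside the spread. Cacng5 ran from 0.692 to 6.83 CPM in eGFP-GluA2 libraries (median 2.04) and from 1.3 to 5.88 CPM in eGFP libraries (median 3.09), on 8 to 73 counts. It was the sole member with an estimate below 0, at -0.28 ± 0.50 (-1.33 to 0.76, edgeR adjusted p = 1.00, exact permutation p = 0.342), and the highest and lowest libraries were both eGFP-GluA2. These 2 intervals were the widest of the 6, and both narrowed when background entered the fit (given with that fit).

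**Figure D3:**
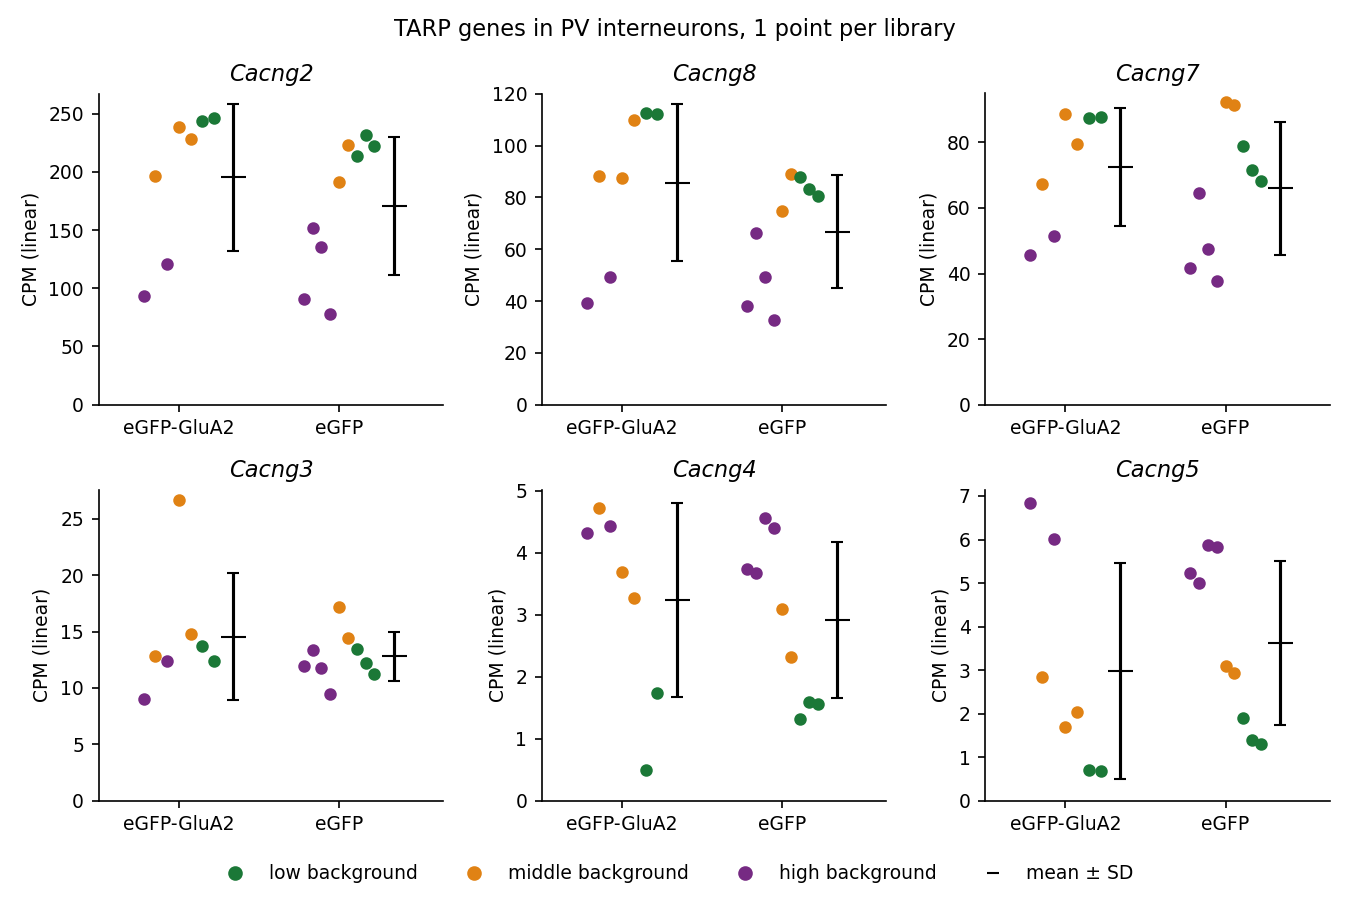
CPM of each TARP gene (linear y axes from 0) in eGFP-GluA2 (left) and eGFP (right) libraries, 1 point per library coloured by background, with mean ± SD beside the points. Within each group Cacng2, Cacng7 and Cacng8 are lowest and Cacng5 is highest in the high-background libraries, as is Cacng4 in the eGFP group, while in the eGFP-GluA2 group a middle-background library has the highest Cacng4 value (4.72 CPM).

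The TARP genes differed in how they followed the background split. Mean CPM in the low-, middle- and high-background libraries was 231, 216 and 112 for Cacng2, 95.3, 90.0 and 45.8 for Cacng8, and 78.8, 83.8 and 48.1 for Cacng7. The scarce members ran the other way, with 1.34, 3.42 and 4.19 CPM for Cacng4 and 1.2, 2.52 and 5.80 CPM for Cacng5. Cacng3 had 12.6, 17.2 and 11.3 CPM and followed neither course. On the log2 CPM scale the high-background libraries differed from the low-background ones by -1.09 for Cacng2, -1.08 for Cacng8, -0.72 for Cacng7, -0.16 for Cacng3, 1.60 for Cacng4 and 2.18 for Cacng5. The median of all tested genes was 0.19 and that of 590 tested receptor genes of the nose 3.38.

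Both neighbours that are not TARPs followed Cacng4 and Cacng5. Cacng1 had 0.0756, 0.99 and 2.31 CPM in the low-, middle- and high-background libraries and was at 0 counts in 3 of the low-background ones, and Cacng6 had 0.303, 1.5 and 2.99 CPM. The differences of high- against low-background libraries were 3.32 and 2.75 on the log2 CPM scale. The summed CPM of 8 markers of oligodendrocyte precursors, cells known to express Cacng4, lay in the same order, with means of 13.2, 33.7 and 57.6 over the 3 kinds of library, and ranges of 9.99 to 65.9 in eGFP-GluA2 and 9.76 to 59.9 in eGFP libraries. None of these 8 markers was at 0 in any library, and the most abundant were Cspg4 (8.15 ± 5.40 CPM in eGFP-GluA2 and 8.55 ± 5.90 CPM in eGFP libraries) and Pdgfra (7.71 ± 4.81 CPM in eGFP-GluA2 and 7.56 ± 4.70 CPM in eGFP libraries). The 6 endothelial and mural markers followed the same order, with summed means of 11.8, 25.7 and 46.2 CPM. So did single interneuron markers of low level, such as Adarb2, with 12.7 CPM in the high- against 2.83 CPM in the low-background libraries. The 10 markers of other interneurons, Adarb2 among them, ran the other way as a sum, with means of 401, 381 and 264 CPM. Sums for oligodendrocytes (133, 109 and 97.0 CPM) and astrocytes (183, 159 and 113 CPM) fell as well. Markers of more than 1 cell type thus shared the rising course of Cacng4 and Cacng5, and those of others did not. Microglial markers summed to 37.4, 39.7 and 39.4 CPM. The part of any of these signals in the Cacng4 and Cacng5 values was not tested.

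**Figure D4:**
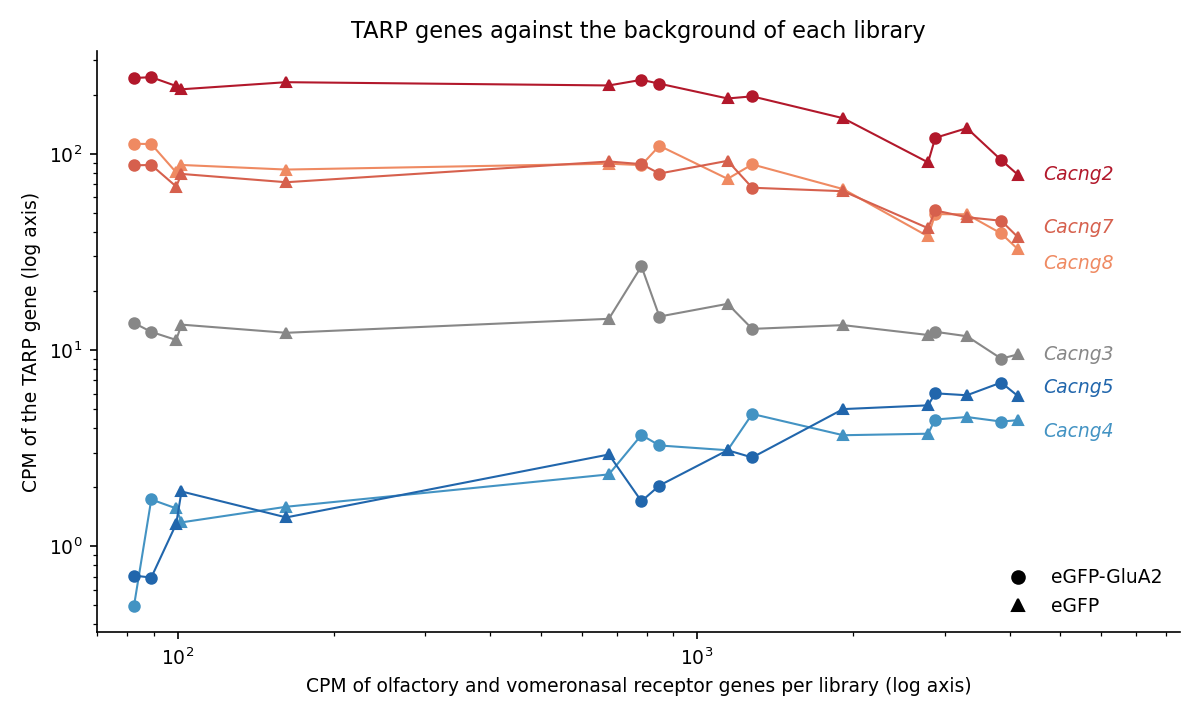
CPM of each TARP gene (y axis, log scale) against the CPM of olfactory and vomeronasal receptor genes in the same library (x axis, log scale), with circles for eGFP-GluA2 and triangles for eGFP libraries and lines joining libraries of neighbouring background. Cacng4 and Cacng5 are higher towards the right, while Cacng2, Cacng7 and Cacng8 are lower above 1500 CPM of background.

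Within the low-background libraries, where PV markers were highest, 3 members lay higher in both eGFP-GluA2 libraries than in all 3 eGFP libraries, as 9.23% of all tested genes did, and 1 lay lower, as 15.3% did. Cacng8 had 112 and 113 CPM in the eGFP-GluA2 libraries and 80.5, 83.2 and 87.8 CPM in the eGFP libraries. Cacng2 had 244 and 246 CPM in eGFP-GluA2 against 214, 222 and 232 CPM in eGFP libraries. Cacng7 had 87.4 and 87.8 CPM in eGFP-GluA2 against 68.2, 71.7 and 79.1 CPM in eGFP libraries. Cacng5 was the lower one, with 0.692 and 0.708 CPM in eGFP-GluA2 and 1.3, 1.4 and 1.9 CPM in eGFP libraries, which rests on 8 and 10 counts in eGFP-GluA2 and on 15, 15 and 23 counts in eGFP libraries.

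None of the 3 genes that lay higher did so without overlap in the middle- or in the high-background libraries. Cacng8 and Cacng2 overlapped between groups in both, and their differences of eGFP-GluA2 minus eGFP on the log2 CPM scale were 0.22 and 0.09 in the middle- and -0.03 and -0.05 in the high-background libraries. In the middle-background libraries Cacng7 had 67.2, 79.4 and 88.7 CPM in the 3 eGFP-GluA2 libraries, below the 91.5 and 92.2 CPM of both eGFP libraries. Cacng5 was again lower without overlap there (9.22% of all genes were), and Cacng4 was higher (8.86% were). In the high-background libraries Cacng5 was higher in both eGFP-GluA2 libraries than in all 4 eGFP libraries, with 6.02 and 6.83 CPM in eGFP-GluA2 against 5.0 to 5.88 CPM in eGFP libraries, where 5.64% of all genes were. Over all 3 kinds of library, the exact two-sided permutation test within them gave p = 0.181 for Cacng8 (0.20 on the log2 CPM scale), p = 0.0573 for Cacng5 (-0.37) and p of 0.644 to 0.949 for the other 4 members.

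When log2 background entered the edgeR fit as a covariate, the errors narrowed and the estimates moved little. Cacng8 stood at 0.31 ± 0.15 (0.01 to 0.62, edgeR adjusted p = 1.00). Its unadjusted p was under 0.05 in this fit, as it was for 2.12% of all genes in the same direction. Cacng5 stood at -0.31 ± 0.18 (-0.67 to 0.06, edgeR adjusted p = 1.00). Without the covariate the SE of Cacng5 had been 0.50 and that of Cacng4 0.39. Cacng2, Cacng3, Cacng4 and Cacng7 stood at 0.17 ± 0.15, 0.18 ± 0.16, 0.17 ± 0.18 and 0.11 ± 0.14. The intervals of this fit end at 0.49 for Cacng2, 0.52 for Cacng3, 0.54 for Cacng4 and 0.40 for Cacng7 on the log2 scale. No TARP gene passed the threshold, against 0.0343% of all genes, among them Gria2 at an adjusted p of 0.0145 in edgeR. With 1 surrogate variable in place of the background, Cacng8 stood at 0.32 ± 0.13 and Cacng5 at -0.36 ± 0.17, both with an edgeR adjusted p of 1.00. Their unadjusted p was under 0.05, as it was for 1.84% of all genes on the higher and 1.82% on the lower side, and 0.0343% of all genes passed the threshold.

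**Figure D5:**
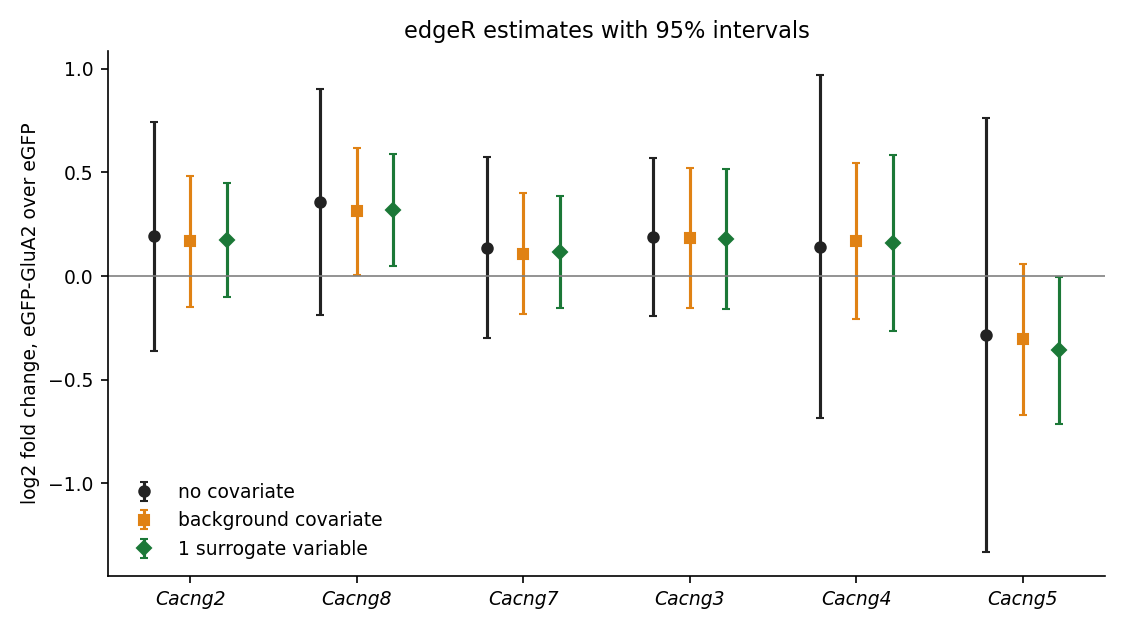
log2 fold change, eGFP-GluA2 over eGFP, of each TARP gene from edgeR (y axis), with 95% intervals, in fits with no covariate (black), with log2 background as covariate (orange) and with 1 surrogate variable (green). The intervals narrow with either covariate, and those of Cacng8 then start just above 0 (0.01 and 0.05) while those of Cacng5 end near 0.

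On the TPM scale the groups differed most for Cacng3, by 0.40 on log2(TPM + 0.5), with an exact permutation p of 0.0491 over all libraries (1.00 adjusted over all genes, 0.763% of which were higher at p under 0.05). Cacng3 ran from 2.80 to 6.77 TPM in eGFP-GluA2 and from 2.00 to 4.70 TPM in eGFP libraries, so the groups overlapped. Within the 3 kinds of library Cacng2 was higher by 0.27 (exact permutation p = 0.0253, adjusted 0.732), where 6.15% of all genes were higher at p under 0.05. Over 20503 genes, the median log2 TPM of the 2 low-background eGFP-GluA2 libraries lay 0.51 and 0.25 above the eGFP mean. Raised medians were found elsewhere too, at 0.31 and 0.27 in eGFP replicates 1 and 4 and 0.21 in eGFP-GluA2 replicate 3. The 2 low-background eGFP-GluA2 libraries also had the highest TPM of Cacng2, Cacng7 and Cacng8. Without them the limma estimates on log2(TPM + 0.5) were 0.25 for Cacng3, 0.04 for Cacng2, 0.04 for Cacng8 and -0.04 for Cacng7. With them the estimates were 0.40, 0.30, 0.32 and 0.21. In the authors' deposited table the log2 fold changes of Cacng2, Cacng3, Cacng4, Cacng5, Cacng7 and Cacng8 were 0.11, 0.25, 0.06, -0.12, 0.08 and 0.15, with an adjusted p of 1.00 for each in that table. Their errors there were 0.14 to 0.15, against 0.17 to 0.51 in DESeq2 run here. That table also rests on other reads than the deposited counts, so the sizes cannot be compared directly.

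Markers of excitatory neurons, cells that express Cacng3 and Cacng8, had estimates in the same direction as most TARP genes. The summed CPM of 12 such markers ran from 247 to 381 in eGFP-GluA2 (median 312) and from 196 to 324 in eGFP libraries (median 269). An estimate above 0 was found for 10 of the 12, as for 45.5% of all tested genes, with a median of 0.30. At an unadjusted p under 0.05 in edgeR, 3 of the 12 were higher and 0 lower, where 0.564% of all genes were higher and 0.552% lower. With the background covariate 6 were higher, where 2.12% of all genes were, and 0 passed the threshold in either fit. Camk2a, a synaptic kinase, had 193 ± 43.7 CPM in eGFP-GluA2 and 170 ± 44.2 CPM in eGFP libraries. Slc17a7, the vesicular glutamate transporter that defines these cells, had 45.9 ± 14.7 CPM in eGFP-GluA2 and 30.7 ± 8.71 CPM in eGFP libraries. In the low-background libraries, where Cacng2, Cacng7 and Cacng8 did not overlap between groups, the sum was 312 to 381 CPM in eGFP-GluA2 and 269 to 293 CPM in eGFP libraries. None of the 12 was at 0 in any library. Their part in the TARP values was not tested.

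Set beside other genes of the AMPA receptor, most TARPs showed small positive estimates, as did most of those genes. All 6 intervals held 0 in the edgeR fit without covariates. The signs are not independent, as the log2 CPM profiles of Cacng2, Cacng7 and Cacng8 had r of 0.93 to 0.97 with each other. The median log2 fold change was 0.16 for the 6 TARPs and -0.02 for all tested genes, with 5 of 6 above 0, where 45.5% of all tested genes were. Of the pore subunits, Gria2 had 0.71 ± 0.16 (edgeR adjusted p = 1.00), and Gria1, Gria3 and Gria4 had 0.17 ± 0.21, 0.06 ± 0.18 and 0.08 ± 0.18. Of 22 other auxiliary and assembly proteins, 0 passed the threshold in edgeR and 19 were above 0, with a median of 0.14. At an unadjusted p under 0.05, 3 of these 22 were higher and none lower, where 0.564% of all tested genes were higher and 0.552% lower. The smallest p-values were those of Shisa8, a CKAMP auxiliary subunit, at 0.61 ± 0.14, and of Nptx1, a secreted pentraxin that clusters AMPA receptors, at 0.46 ± 0.12. Of 15 scaffold, adaptor and kinase partners of the TARP tail, 0 passed the threshold, 12 were above 0 and none had an unadjusted p under 0.05 in edgeR. Among them was the immediate early gene Arc, at 0.29 ± 0.30. The neighbours Cacng1 and Cacng6 had -0.17 ± 0.91 and -0.04 ± 0.66.

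Across the 16 libraries, after the group means and the linear dependence on log2 background were removed from log2 CPM, the profiles of Cacng2 and Cacng8 were the most alike of any pair of TARPs (r = 0.94). Cacng2 with Cacng7 had r = 0.87, Cacng7 with Cacng8 had r = 0.87 and Cacng2 with Cacng3 had r = 0.72. Cacng4 and Cacng5, whose unadjusted profiles had r = 0.81, had r = -0.12 after this step. Among 12399 protein-coding genes, the profile most like that of Cacng2 was Inafm2 (r = 0.99), followed by Faf2 and by Gria1 (each r = 0.99), the last of them the GluA1 gene. Amigo1 and Faim2 (r = 0.98 each) were among those most like Cacng8, and Hectd4, Plxna1 and Inpp4a (r = 0.98 each) most like Cacng7. Trim66, Celf1 and Ubr2 (r = 0.94 to 0.95) were most like Cacng3. Those most like Cacng5 were Dera, Cyb5rl and Corin (r = 0.80 to 0.81), and those most like Cacng4 the predicted genes Gm21738, Gm10801 and Gm10717 (r = 0.89 to 0.90). All these values share the same libraries and the same scaling, and they describe likeness over 16 points. In TMM-scaled CPM, Cacng2, Cacng7 and Cacng8 fell mainly from the middle- to the high-background libraries, a course that a linear term does not fully remove. Their unadjusted r was 0.97 for Cacng2 with Cacng8, 0.94 for Cacng2 with Cacng7 and 0.93 for Cacng7 with Cacng8. The part of shared background in the likeness was not tested.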

How the data were processed

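The authors aligned 150-bp read pairs to GRCm38 with STAR within bcbio-nextgen 1.2.3 and used Sailfish (Ensembl annotation) for quantification and DESeq2 for the comparison, per the series' design text in the labels. The deposited counts are whole reads per gene, not normalized, and no source used here names their counter. The deposited TPM are the authors' length-scaled values. The authors' table of comparisons, per the file headers, holds signal values (counts divided by a size factor), log2 fold changes with errors, a test statistic (score) and p-values. In it 100% of normalized values came out as whole reads within a tolerance of 0.001. These reads differ from the deposited counts and were tested as an alternative, which called 3 genes.

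Genes were named from GENCODE M21 (54409 of 54532 identifiers). Library totals were 7454165 to 15462544 counts. The main test was edgeR 4.0.16 (TMM scaling, filterByExpr, quasi-likelihood F test with robust dispersion, Benjamini-Hochberg over 26257 genes, threshold 0.05). The filter kept 99.2% of counts. Errors were taken from the F statistic. Group was the sole term. Cacng4 and Cacng5 rest on the fewest reads of the 6 members, 7 to 73 per library. Background is the CPM of 1450 autosomal receptor genes of the nose, with tiers under 500, 500 to 1500 and over 1500. Exact two-sided permutation tests used 11440 assignments of libraries, or 1500 within tiers. Alternatives used limma 3.58.1, DESeq2 1.42.0, sva 3.50.0, Python 3.11.15, scipy 1.17.1 and R 4.3.3. The TPM filter was 0.1 in at least 7 libraries. The edgeR fits with and without the background covariate and the permutation test were tested on simulated data.

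The members, the gene lists, the tiers and the alternatives were chosen with earlier results of these data known, except the TPM fit without 2 libraries, which was chosen after seeing these values. Genes named are the 6 members, Gria1 to Gria4, of each list the members past the threshold or else the 2 of smallest p, the most abundant markers of the lists discussed, and per member the 3 protein-coding genes (average log2 CPM of at least 2) of most similar profile. Some genes that meet this rule are not reported here. Neighbouring and overlapping genes, Pvalb and Slc17a7 are named beside these. The lists for other interneurons, oligodendrocytes, astrocytes, microglia and vessel cells had 0 members past the threshold in edgeR, 1 higher (Lamp5) at an unadjusted p under 0.05, and median log2 fold changes of 0.04, 0.19, -0.03, 0.05 and 0.13.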

Additional observations from a re-analysis of the deposited data

Results flagged for a closer look

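Cacng3 in eGFP-GluA2 replicate 4 stood far from the other 6 libraries of its group, at 26.7 CPM against 14.8 CPM in the nearest of them. The gap was 0.673 of the group's whole range, above the critical value of 0.568 for 7 libraries. It was the only such value among 24 groups of values examined, and chance gives about 1 in 20. The library holds 268 Cacng3 reads, and its Cacng2, Cacng7 and Cacng8 values of 239, 88.7 and 87.7 CPM lay within the range of the other eGFP-GluA2 libraries for Cacng2 and Cacng8 and were the highest of the group for Cacng7. On the TPM scale the same library had 6.02 TPM of Cacng3, below the 6.77 TPM of eGFP-GluA2 replicate 6. The cause was not tested.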

How the results depend on the processing

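No TARP gene passed an adjusted p of 0.05 in any of the alternatives run. The lowest adjusted p, 0.0642 for Cacng2, Cacng5 and Cacng8, came with the excitatory markers as covariate, a fit in which 21.2% of all genes were higher and 26.7% lower at an unadjusted p under 0.05. Cacng8 stayed above 0 throughout (0.04 to 0.82) and Cacng5 below 0 (-1.28 to -0.02), and Cacng2 ran from 0.04 to 0.72. Estimates on the log2 scale turned sign for Cacng4 with limma-voom (-0.24), the excitatory covariate (-0.59), the oligodendrocyte precursor covariate (-0.0021) and the replicate block (-0.12), and for Cacng7 on TPM in 14 libraries (-0.041). Cacng3 stood at 0.40 on recovered reads and on TPM. The cause was not tested. Leaving out each library gave 0.10 to 0.31 for Cacng2, -0.024 to 0.28 for Cacng3, 0.01 to 0.34 for Cacng4, -0.64 to -0.11 for Cacng5, 0.06 to 0.22 for Cacng7 and 0.27 to 0.48 for Cacng8, with the count of called genes at 1 in every case. Genes past the threshold numbered 1 in the fit as reported. They numbered 2 with upper-quartile scaling, library totals only, TPM at pseudocounts 0.5 and 1, TPM without a filter and TPM in 14 libraries. They numbered 3 with a pseudocount of 0.1, on recovered reads and without the high-background libraries, 4 with the excitatory and 7 with the oligodendrocyte precursor covariate, 8 in DESeq2, 9 with the background covariate or 1 surrogate variable and 11 with the tiers as a block. Cacng8 stood at 0.32 ± 0.10 without the high-background libraries (edgeR adjusted p = 0.998), and stood at 0.19 ± 0.12 with the tiers as a block. The replicate numbers did not pair the libraries by the rule that every pair exceed an r of 0.1. Same-numbered deviations had r of 0.89, 0.63, 0.89, -0.03, 0.19, 0.21 and 0.90 for numbers 1 to 7, and 2 of the 7 correlated best with their own number. The replicate block gave 7 genes past the threshold, with 0.45 for Cacng8 and -0.78 for Cacng5 (edgeR adjusted p = 0.576 for each). Cacng4 and Cacng5 rest on 7 to 73 reads per library, and with background in the fit their SE (0.18 each) stood beside 0.15 for Cacng2, against 0.39 and 0.50 without it.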
